A study of Mus musculus with 18 samples.

Results

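The mRNAs of 9 genes that package or supply histones in the oocyte were followed across single mouse oocytes. They were taken by symbol, 9 of the 47069 genes in each deposited table, and all 9 passed the filter on low counts. H1foo encodes the oocyte linker histone. Npm2, Npm1 and Npm3 encode the nucleoplasmin family of histone chaperones. H3f3a and H3f3b both encode the replacement histone H3.3, and Hira encodes the chaperone that deposits it. Slbp encodes the protein that binds the stem-loop at the end of replication-dependent histone mRNAs, and Nasp encodes a chaperone of histone H3 and linker histones.

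A linker histone sits where DNA enters and leaves the nucleosome, and in growing oocytes the somatic forms give way to H1foo, which stays through maturation and is replaced again in the early embryo. After fertilization the egg must strip protamines from the sperm genome and build new chromatin from its own store. Nucleoplasmins, H3.3, HIRA and the SLBP-dependent supply of core histones are known for their part in that work. Because a fully grown oocyte is transcriptionally silent until after fertilization, these proteins are made from stored mRNA, much of it translated when its poly(A) tail is lengthened.

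All oocytes came from C57BL/6JAusb mice and were either germinal vesicle (GV) oocytes, arrested with an intact nucleus, or metaphase II (MII) oocytes, which are mature eggs. Young controls were 4 weeks old and drank plain water, aged controls were 12 months old and drank plain water, and aged NMN mice were 12 months old and had been given nicotinamide mononucleotide (NMN), from which cells make NAD, in their water at 2 g/L for 4 weeks. Of the 16 oocytes, 7 were GV (2 from young controls, 2 from aged controls and 3 from aged NMN mice) and 9 were MII (3 of each condition). Each library was made from 1 oocyte whose nucleus had been pelleted and left behind, a step with no counterpart in MII oocytes, so GV and MII libraries may not hold the same fraction of the cell. Since no animals are named in the labels, each group is treated as 1 sample, no test between groups was made, and SDs describe the spread between oocytes.

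Values are CPM, the counts of a gene scaled to a common library total, after TMM scaling unless TPM, which is per length, is named. They are shares of a library, so less RNA of a gene and more RNA of others cannot be told apart. A ratio between groups is the log2 ratio of mean CPM + 1, and folds are plain ratios of the means. A gene was called where the means differed at least 2-fold and no oocyte of one group overlapped the other, and the share of the 12161 tested genes called is given beside each count. Lack of overlap under 2-fold is stated for some genes as a description. Its share over all tested genes is not given, and groups of 2 or 3 oocytes can easily fail to overlap. Library totals ran from 2756181 to 5586894 counts, and 3 counts corresponded to 0.537 to 1.09 CPM. All 10 oocyte markers were detected in 14 oocytes, and 7 and 8 of them in MII aged NMN oocytes 1 and 2. Those oocytes also had 6400 and 5640 detected genes and 43.0 and 33.2% mitochondrially encoded counts, against 7704 to 13756 genes and 2.76 to 24.4% in the others. Of 12 cumulus and granulosa markers, 1 to 5 were detected in GV oocytes and 0 to 8 in MII oocytes, with sums of 0.769 to 75.7 and 0 to 297 CPM, and Amh and Foxl2 were at 0 in every oocyte. These markers summed to 32.1 to 297 CPM in MII young controls against 17.5 to 26.3 CPM in GV young controls. Of the 7 that passed the filter 2 were called higher, against 16.6% of all tested genes. Endothelial markers summed to 7.74 to 61.8 against 0 to 6.69 CPM in the same groups and to 25.5 to 29.4 against 6.14 to 6.66 CPM in aged controls, with Emcn at 0 in every oocyte. Of the 3 that passed the filter 1 was called higher in each comparison, against 16.6 and 8.32% of all tested genes. The part of other cells in the maturation differences was not tested. One oocyte of each group was titled batch 2 with a further number (2-1 or 2-2), and these are called the second title set.

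**Figure D1:**
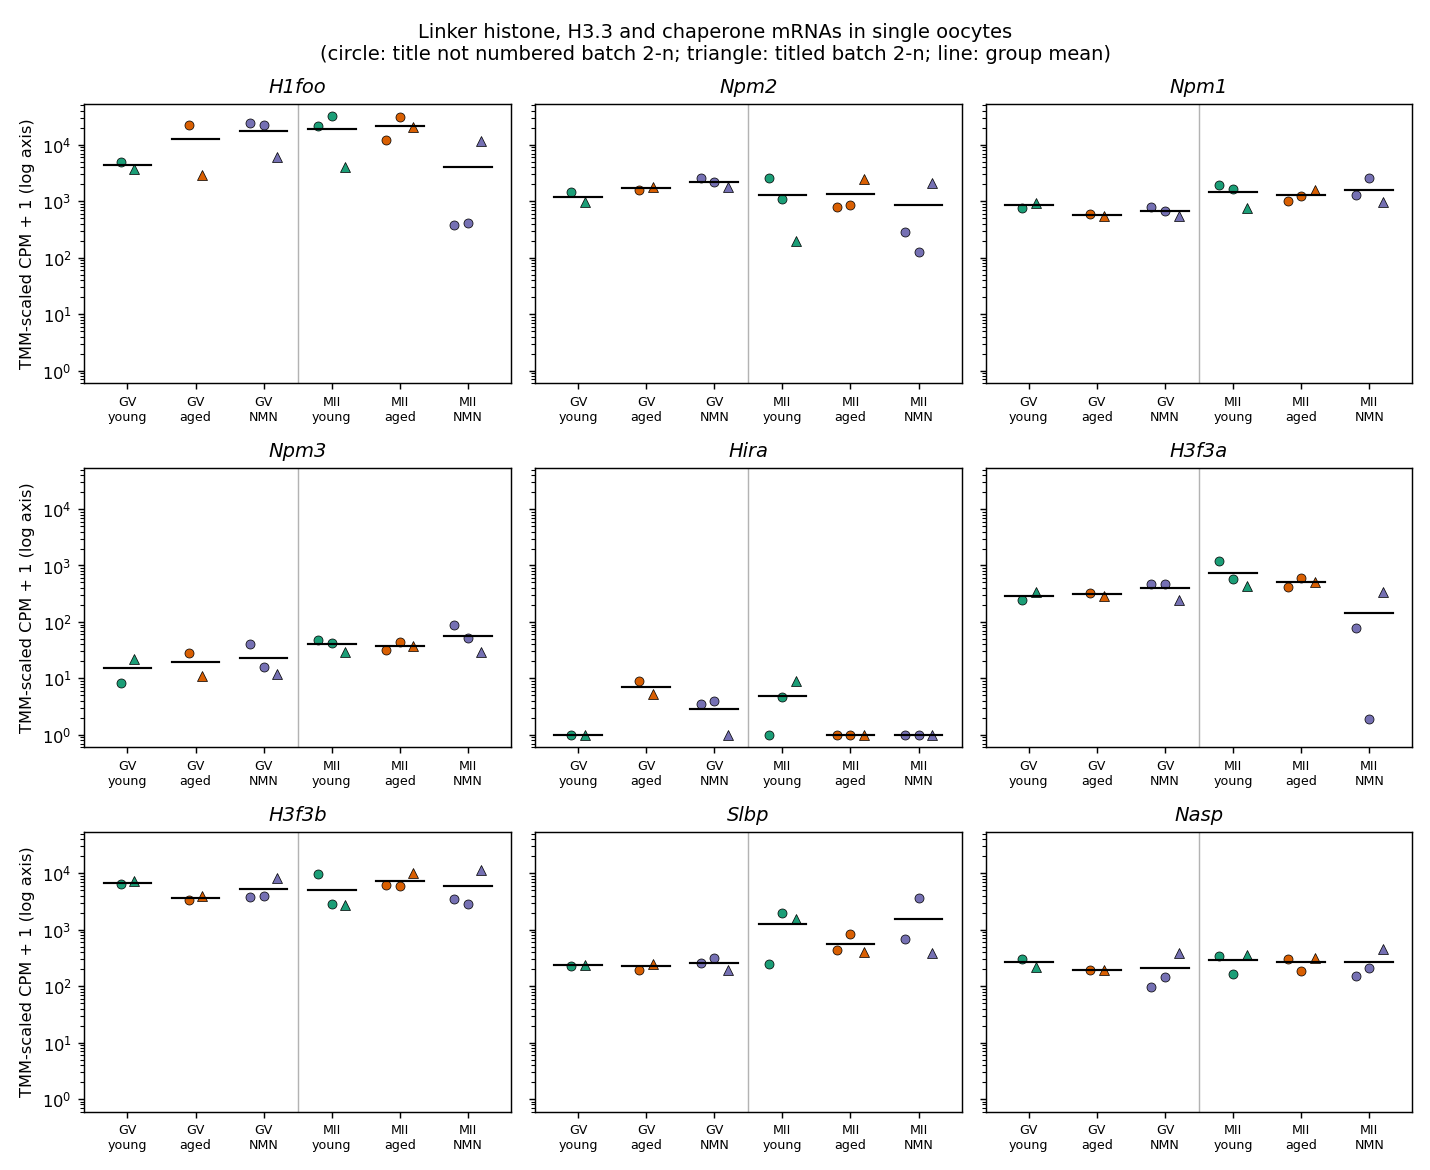
Scaled CPM + 1 (log axis) of the 9 genes in each of 16 oocytes by stage and condition; circles are the first title set, triangles the second, and lines the group means. Slbp lies at 191 to 317 CPM in GV oocytes and spreads from 249 to 3657 CPM in MII oocytes, and H1foo and H3f3a fall lowest in the first MII NMN oocytes.

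Per length, H1foo had the highest mean of the 9 genes in all 6 groups, and it was the highest of them in 13 of 16 oocytes. Its mean TPM was 4101 ± 754 (SD, n = 2) in GV young controls, 14445 ± 15786 (n = 2) in GV aged controls and 17337 ± 10804 (n = 3) in GV aged NMN oocytes. In MII oocytes it was 23845 ± 19956, 27272 ± 14886 and 3974 ± 6505 TPM for young, aged and aged NMN (n = 3 each). The MII aged NMN mean rested on oocyte 2-1 at 11485 TPM. In oocytes 1 and 2 of that group H1foo was at 219.7 and 217.7 TPM, in position 4 of the 9 genes, with H3f3b highest in the one at 1251 TPM and Npm1 in the other at 1333 TPM. H1foo ranked first of all genes by TPM in 2 of 16 oocytes and within the top 10 in 9, with a lowest rank of 298. H3f3b was the second in 5 groups and the third in GV aged controls, where it overlapped Npm2. In GV young controls the order was H1foo, H3f3b, Npm2, Npm1, H3f3a, Slbp, Nasp, Npm3 and Hira, and only H1foo and H3f3b overlapped their neighbour. In MII young controls the 4 neighbouring pairs from H3f3b through Npm1, Npm2 and Slbp to H3f3a overlapped. Npm3 and Hira held the lowest positions in every group, with group means of 16.7 to 70.1 TPM for Npm3 and at most 2.41 TPM for Hira.

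H1foo (ENSMUSG00000042279, GRCm38 chromosome 6, 115944938 to 115950236, plus strand) was the only one of the 9 genes with a match to a cytoplasmic polyadenylation element in the last 150 bases of its annotated transcript. The element, which CPEB proteins bind to control the poly(A) tails of stored mRNAs, was searched as TTTTAT or TTTTAAT in the last 150 bases of the 3′ UTR, on the transcript strand only. The cleavage signal was searched as AATAAA or ATTAAA in the same window, and 8 of the 9 genes had a match, Npm1 having none there. Bases of the 3′ UTR before this window were not searched. Over 17158 genes with such a window, 23.4% held the first kind of motif and 81.2% the second. Both H1foo matches lie in exon 5 of 5, and they are shown with the Slbp signal because these mRNAs carry the main differences described here. Capitals mark the motif.
H1foo element, chr6:115950157-115950186 (+): cgattctgaagcTTTTATtgtctaataagc
H1foo cleavage signal, chr6:115950202-115950231 (+): tcataatttatcAATAAAgactttgtattc
Slbp cleavage signal, chr5:33640064-33640093 (-), exon 8 of 8: gataattgcaaaAATAAAgaccctttaact
The H1foo element begins 63 bases from the transcript end and the cleavage signal 18 bases from it. A match describes the letters only, and poly(A) tails were not measured.

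In GV oocytes H1foo fell into 2 well separated levels. It was at 4938 and 3790.1 CPM in the young controls and at 22845 and 2916 CPM in the aged controls. In aged NMN oocytes it was at 24778, 22397 and 5959.9 CPM. The 3 oocytes at 22397 CPM or more all belong to the first title set, and the 3 of the second set are among the 4 low ones. The fourth low oocyte is GV young control 1, whose deposited table is identical to one titled in the second set. Age and title set therefore cannot be told apart for H1foo in GV oocytes. The 3 high oocytes also had 13215 to 13756 detected genes and summed oocyte markers of 13796 to 21408 CPM, against 8804 to 11687 genes and 7178 to 9816 CPM in the other 4. Of their detected genes 20.9 to 23.6% had a fractional count, against 13.1 to 14.6% in the other 4. Immune markers summed to 97.2 to 237 CPM in them and to 0 to 21.5 CPM in the rest, with Ptprc, C1qa and Cd52 at 0 in all 7. Their part in the result was not tested.

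The means of these GV groups were 4364 ± 812 (SD, n = 2), 12880 ± 14092 (n = 2) and 17712 ± 10247 CPM (n = 3). Aged NMN oocytes lay 4.06-fold above young controls without overlap, and the log2 ratio of 2.02 was 0.65 within the second title set. Aged controls were 2.95-fold above young controls with overlap, and the log2 ratio of 1.56 turned to -0.38 within the second set.

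In MII oocytes H1foo was at 21786, 31937 and 3972 CPM in young controls and at 12031, 31644 and 20810 CPM in aged controls. In aged NMN oocytes it was at 385, 408 and 11559 CPM. Oocytes 1 and 2 of that group lay below all others of either stage, while oocyte 2-1 lay just under the lowest aged control. The NMN mean of 4117 ± 6445 CPM (n = 3) was 5.22-fold below that of aged controls (21495 ± 9825, n = 3) without overlap, a log2 ratio of -2.38. With oocytes 1 and 2 left out it was -0.90, without oocyte 2-1 it was -5.76, and within the second title set -0.85. With RLE scaling the groups overlapped. Those 2 oocytes have the fewest detected genes and the highest mitochondrial shares, and the part of these in the result was not tested.

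From GV to MII, H1foo was 4.41-fold higher in young controls and 1.67-fold higher in aged controls, and 4.30-fold lower in aged NMN oocytes, each time with overlap. The direction of these values depended on the oocytes used. In young controls the log2 ratio of 2.14 was 0.07 within the second title set, and in aged NMN oocytes the ratio of -2.10 was 0.96 within that set.

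The gene whose level followed H1foo most closely was Mos, the kinase that holds the egg at metaphase. Over 5733 genes ranked by the lower of their correlations within each stage, Pearson's r with H1foo was 0.991 over 7 GV and 0.982 over 9 MII oocytes. It was 0.981 and 0.885 without the 2 oocytes of each stage farthest from the median of H1foo. Mos was at 81.0 to 133 CPM in the 4 GV oocytes low in H1foo and at 858 to 1003 CPM in the 3 high ones. It had no count in MII aged NMN oocytes 1 and 2 and was at 201 to 1953 CPM in the other MII oocytes. Pdcd2l and Lman2 came next in likeness. Oocytes of a group share handling and depth, so these correlations describe the libraries only.

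**Figure D2:**
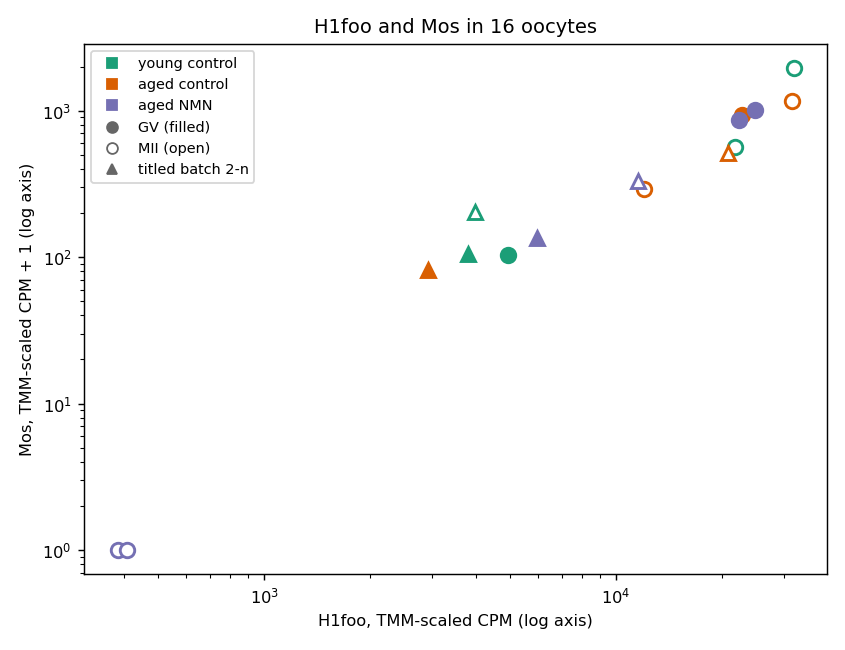
H1foo (scaled CPM, log axis) against Mos (scaled CPM + 1, log axis) in 16 oocytes, filled for GV and open for MII, with triangles for the second title set. H1foo and Mos rise together within both stages, and the open points at the bottom left are MII aged NMN oocytes 1 and 2, where Mos has no count.

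H1f0, the replacement linker histone of differentiated somatic cells, was higher in MII aged NMN oocytes 1 and 2 than in the other MII oocytes. H1f0 was at 376 and 171 CPM in MII aged NMN oocytes 1 and 2, from 953 and 550 counts. In oocyte 2-1 of the group it was at 30.9 CPM. The 3 MII aged controls were at 19.0, 27.3 and 22.9 CPM and the 3 MII young controls at 50.6, 36.1 and 52.3 CPM. GV oocytes were at 49.7 and 31.8 CPM (young), 174 and 108 CPM (aged), and 71.8, 140 and 110 CPM (aged NMN). GV aged control 1, at 174 CPM, was among the oocytes high in H1foo. Per length, H1foo stood 2.40- and 5.48-fold above H1f0 in MII aged NMN oocytes 1 and 2. In the other 14 it stood 66.7- to 2883-fold above H1f0. The 2 oocytes were picked out by their H1foo level, so the contrast with H1f0 is a description.

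Npm2 (ENSMUSG00000047911, chromosome 14, 70647302 to 70659244, minus strand), the oocyte nucleoplasmin, was more even among GV oocytes. It was at 1458 and 951 CPM in young controls, 1599 and 1795 CPM in aged controls, and 2533, 2169 and 1779 CPM in aged NMN oocytes. The young controls lay below all 5 aged oocytes, with means of 1204 ± 358 against 1697 ± 138 and 2161 ± 377 CPM. The aged controls were 1.41-fold and the aged NMN oocytes 1.79-fold above the young, both under the 2-fold line, and these comparisons share their young controls.

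MII oocytes varied far more in Npm2. They were at 2625, 1113 and 196 CPM in young controls, 778, 840 and 2467 CPM in aged controls, and 286, 127 and 2138 CPM in aged NMN oocytes. Every pair of MII groups overlapped. The highest MII value was 20.6 times the lowest, against 2.66 times in GV oocytes. Group means differed from those of GV oocytes by 1.09-fold higher in young, 1.25-fold lower in aged and 2.54-fold lower in aged NMN oocytes, all with overlap. Cox6b1, a subunit of cytochrome c oxidase, followed Npm2 most closely, with r of 0.949 over 7 GV and 0.984 over 9 MII oocytes. Without the 2 oocytes of each stage farthest from the median of Npm2 it was 0.716 and 0.960.

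Npm1 (ENSMUSG00000057113, chromosome 11, 33152287 to 33163206, minus strand), the abundant nucleolar member of the family, was higher in MII oocytes. It was at 762 and 921 CPM in GV young controls, 600.5 and 539.9 CPM in GV aged controls, and 805, 678 and 553 CPM in GV aged NMN oocytes. In MII oocytes it was at 1916, 1652 and 748 CPM in young controls, 1025, 1255 and 1555 CPM in aged controls, and 1312, 2539 and 987 CPM with NMN. The lowest MII oocyte, a young control of the second title set, was the only one inside the GV range.

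By the means, MII oocytes were 2.24-fold higher in Npm1 in aged controls and 2.38-fold higher with NMN, both called. In young controls they were 1.71-fold higher with overlap, and -0.30 on the log2 scale within the second title set. The log2 ratio in aged controls, 1.16, was 0.92 within the first title set, and just under the 2-fold line with RLE scaling or without MII aged control 2-1. With NMN the log2 ratio, 1.25, was 0.94 with library totals, 0.76 by TPM with overlap and 0.76 without MII aged NMN oocyte 2. It was 0.84 within the second title set and 0.54 without oocytes 1 and 2. GV aged controls lay 1.48-fold below GV young controls without overlap, at 570.2 ± 42.8 against 841 ± 112 CPM (SD, n = 2 each). This was under the 2-fold line and not called. Npm1 has 6 annotated near-identical copies (at least 90% identity over 200 bases), which held 1.41% of the summed counts.

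Npm3 (ENSMUSG00000056209, chromosome 19, 45747734 to 45749591, minus strand), the smallest member, was far below the other nucleoplasmins. GV oocytes held 7.21 and 20.9 CPM (young), 27.0 and 10.1 CPM (aged), and 40.0, 14.7 and 10.8 CPM (aged NMN). MII oocytes held 47.5, 42.0 and 28.5 CPM (young), 30.8, 42.3 and 36.3 CPM (aged), and 88.9, 50.6 and 28.1 CPM (aged NMN). Both young and aged MII controls lay above all GV oocytes of their condition. Npm3 was 2.80-fold higher in MII young controls, which was called, 1.97-fold higher in aged controls without overlap, and 2.56-fold higher with NMN with overlap. The log2 ratio in young controls was 1.42, and 2.30 without GV young control 2-2. It fell below the 2-fold line without GV young control 1, at 0.88, and within the second title set, at 0.43. With NMN the log2 ratio of 1.32 was 0.35 without MII oocytes 1 and 2. Values of single oocytes are uncertain, since Npm3-ps1, a processed copy, took 0 to 31.7% of their summed counts, 4.25% over all oocytes.

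Both H3.3 genes encode the same histone from different DNA. Their coding regions are 411 bases long and differ at 95 positions, 81 of them at the third position of a codon, which leaves 76.9% identity and no identical run over 23 bases. The first 120 coding bases are shown to mark this divergence, and how reads were assigned to one gene or the other was not examined. Capitals mark the 24 differing bases. Both stretches lie in exon 2 of 4 and are read on the minus strand.
H3f3a, chr1:180811807-180811926 (-): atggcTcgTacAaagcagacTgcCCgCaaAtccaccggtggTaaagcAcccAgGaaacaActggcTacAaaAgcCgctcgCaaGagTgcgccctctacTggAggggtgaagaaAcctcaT
H3f3b, chr11:116023890-116024009 (-): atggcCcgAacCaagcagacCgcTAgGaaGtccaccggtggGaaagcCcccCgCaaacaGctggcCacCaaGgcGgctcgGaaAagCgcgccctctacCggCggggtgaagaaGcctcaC
H3f3a has 22 near-identical annotated copies with 0.191% of the summed counts over all oocytes, and H3f3b has 2 with 0.0025%. In single oocytes the H3f3a copies took 0 to 25% of the summed counts. The deposited count was fractional in 11 of 16 oocytes for H3f3a and in all 16 for H3f3b.

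H3f3b (ENSMUSG00000016559, chromosome 11, 116021912 to 116027962, minus strand) gave most of the H3.3 mRNA in every oocyte. It was at 6392 and 7352 CPM in GV young controls, 3367 and 3899 CPM in GV aged controls, and 3756, 3983 and 8321 CPM in GV aged NMN oocytes. The aged controls lay 1.89-fold below the young without overlap, at 3633 ± 377 against 6872 ± 679 CPM (SD, n = 2 each). This difference did not reach 2-fold and was not called. The log2 ratio of -0.92 was -0.92 in the first title set and -0.91 in the second, each from 1 oocyte per group. The young oocyte of the first set, GV young control 1, has a table identical to one titled in the second.

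In MII oocytes H3f3b was at 9592, 2869 and 2763 CPM in young controls, 6108, 5847 and 10334 CPM in aged controls, and 3511, 2880 and 11431 CPM with NMN. These groups overlapped one another. In aged controls all MII oocytes lay above the GV oocytes, 2.05-fold by the means, and this was called. The log2 ratio of 1.03 fell below the 2-fold line without MII aged control 2-1, at 0.72, without GV aged control 1, at 0.93, within the first title set, at 0.83, and with RLE scaling, at 0.87. The maturation values were 1.35-fold lower in young controls and 1.11-fold higher with NMN, with overlap.

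H3f3a (ENSMUSG00000060743, chromosome 1, 180800832 to 180813943, minus strand) was at 247 and 337 CPM in GV young controls, 331 and 293 CPM in GV aged controls, and 473, 474 and 241 CPM in GV aged NMN oocytes. All GV groups overlapped in H3f3a. MII young controls were at 1216, 578 and 431 CPM and MII aged controls at 409, 603 and 506 CPM. MII aged NMN oocytes were at 77.8, 0.931 and 345 CPM, all below every MII control, and the value of 0.931 rests on 3 counts.

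The NMN mean for H3f3a, 141 ± 180 CPM (n = 3), was 3.59-fold below MII aged controls (506 ± 97.0) and 5.25-fold below MII young controls (741 ± 417), both called. The log2 ratios of -1.83 and -2.38 were -0.55 and -1.10 without oocytes 1 and 2, and -3.65 and -4.20 without oocyte 2-1. They were -0.55 and -0.32 within the second title set, so most of their size rested on those oocytes of few detected genes. In MII oocytes H3f3a was 2.54-fold higher than in GV oocytes in young controls, which was called, and 1.62-fold higher in aged controls without overlap. With NMN it was 2.81-fold lower with overlap. The log2 ratio of 1.34 in young controls was 0.35 within the second title set, 0.79 without MII young control 1 and 0.99 with RLE scaling, each below the 2-fold line.

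The split of H3.3 counts between these genes is a value within each library that scaling cannot move. H3f3b supplied 96.3 and 95.6% of the H3f3a + H3f3b counts in GV young controls, 91.1 and 93.0% in GV aged controls, and 88.8, 89.4 and 97.2% in GV aged NMN oocytes. In MII oocytes it supplied 88.8, 83.2 and 86.5% in young controls, 93.7, 90.7 and 95.3% in aged controls, and 97.8, 99.97 and 97.1% in aged NMN oocytes. The 3 MII groups did not overlap, the order being young, then aged, then aged NMN. MII aged NMN oocytes 1 and 2, at 97.8 and 99.97%, are those of few detected genes and high mitochondrial shares. The part of this in the order was not tested, and the 99.97% rests on 3 counts of H3f3a. How often other pairs of genes separate the groups in this way was not examined. The exact (Clopper-Pearson) 95% intervals of single oocytes, which cover counting error only, were at most 1.08 percentage points wide.

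Group means of this share were 86.2 ± 2.77% in MII young, 93.2 ± 2.38% in MII aged and 98.3 ± 1.50% in MII aged NMN oocytes (SD, n = 3 each). The same order held within each title set, at 86.5, 95.3 and 97.1% in the second set, each from 1 oocyte. By TPM, which corrects for transcript length, the shares were 72.2 to 82.4%, 86.3 to 93.3% and 96.6 to 99.9%, again without overlap. In GV oocytes the young share of 96.0 ± 0.468% (n = 2) lay above the aged share of 92.0 ± 1.39% (n = 2). The aged minus young difference in share was -3.92 percentage points in GV and 7.06 in MII oocytes, a contrast that was not tested. From GV to MII it was lower in young controls without overlap, while in aged controls the stages overlapped.

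**Figure D3:**
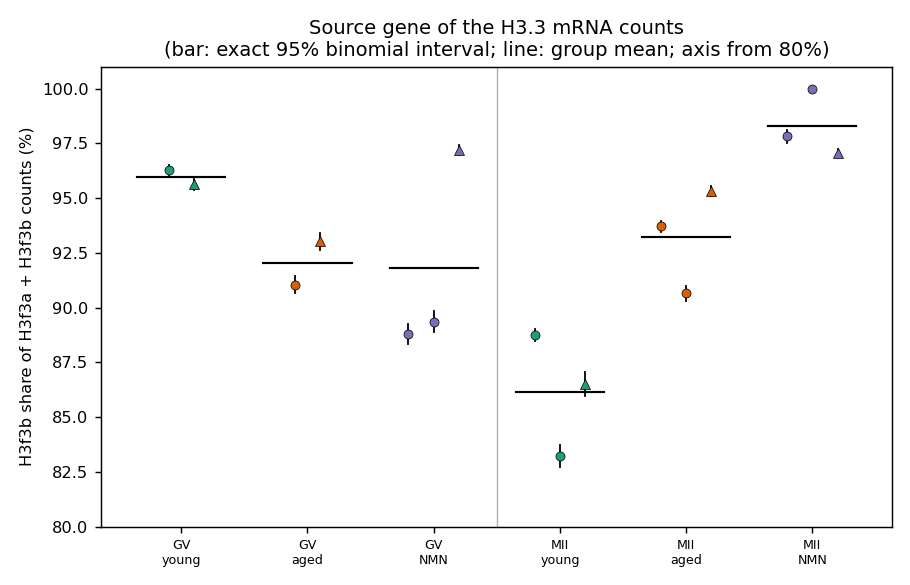
Share of H3f3a + H3f3b counts from H3f3b (%, axis from 80%) in each oocyte, with exact 95% binomial intervals as bars and group means as lines. MII oocytes step up from 83.2 to 88.8% (young) through 90.7 to 95.3% (aged) to 97.1% and above (aged NMN), while GV young controls lie above GV aged controls.

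Hira (ENSMUSG00000022702, chromosome 16, 18877037 to 18970309, plus strand) was near the limit of detection. It had 145 counts in all, in 6 of 16 oocytes. Those 6 had 11687 to 13756 detected genes and the rest 5640 to 10744, and the part of this in the result was not tested. GV aged controls were at 7.89 and 4.17 CPM, GV aged NMN oocytes at 2.51, 2.99 and 0 CPM, and MII young controls at 0, 3.58 and 7.85 CPM. No count fell in GV young, MII aged or MII aged NMN oocytes. Gm28539, another annotated protein-coding gene, is 100% identical to Hira over 2416 bases and had 0 counts in all oocytes. How reads that fit both genes were assigned was not examined.

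Against 3 counts over the group, Hira was at least 15.5-fold higher in GV aged than GV young controls. It was at least 25-fold higher in GV aged controls than in MII aged controls. GV aged NMN oocytes lay 3.29-fold below GV aged controls without overlap, from 22 and 62 counts. That log2 ratio of -1.31 was -0.87 without GV aged control 1, -0.91 without GV aged NMN 2-1 and -0.81 by TPM. Keeping the GV aged control library of few counts, which has no count of Hira, made the groups overlap in all 3 comparisons with GV aged controls. At this depth the absence of counts does not show the absence of the mRNA.

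Slbp (ENSMUSG00000004642, chromosome 5, 33634952 to 33652574, minus strand) was the only one of the 9 genes called higher in MII oocytes in all 3 conditions, though each of these calls was lost under an alternative. GV oocytes were alike, at 228 and 239.7 CPM in young controls, 195 and 250.2 CPM in aged controls, and 256, 317 and 191 CPM with NMN. MII oocytes were at 249, 1999 and 1551 CPM in young controls, 440.3, 847 and 404 CPM in aged controls, and 688, 3657 and 393 CPM with NMN. The lowest MII oocyte, young control 1, lay inside the range of GV oocytes of other conditions, and the remaining 8 lay above all 7 GV oocytes. Against GV young controls its margin was 249 to 239.7 CPM, and by TPM, at 119 to 137, it overlapped them, as it did with library totals and RLE scaling.

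By the means, Slbp was 5.42-fold higher in MII young controls (1266 ± 909 CPM, n = 3, against 234 ± 8.60, n = 2) and 2.53-fold higher in MII aged controls (564 ± 246, n = 3, against 223 ± 39.0, n = 2). It was 6.20-fold higher with NMN (1579 ± 1805 against 255 ± 63.0, n = 3 each). The log2 ratios within the first title set were 2.30, 1.72 and 2.92, and within the second 2.69, 0.69 and 1.04, in the same order. Without MII aged control 2 the log2 ratio in aged controls, 1.34, was 0.92. Between MII groups Slbp overlapped throughout. The aged mean was 2.25-fold below the young and 2.80-fold below the NMN mean, the latter resting on MII aged NMN 2 at 3657 CPM, the oocyte with the fewest detected genes. Without that oocyte the log2 ratio of MII over GV with NMN, 2.63, was 1.08, and without oocytes 1 and 2 it was 0.63.

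Nasp (ENSMUSG00000028693, chromosome 4, 116601052 to 116627941, minus strand) was, with Npm2, called in none of the 9 comparisons. GV oocytes were at 305 and 219 CPM (young), 196 and 189 CPM (aged), and 95.3, 142 and 387 CPM (aged NMN). MII oocytes were at 343, 163 and 350.1 CPM (young), 301, 181 and 310.2 CPM (aged), and 151, 206 and 458 CPM (aged NMN). The GV aged controls lay 1.36-fold below the young without overlap. From GV to MII the means were 1.09-fold, 1.37-fold and 1.31-fold higher in young, aged and aged NMN oocytes, all with overlap.

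Counted over the 9 genes, maturation in young controls called 3 higher (Npm3, H3f3a and Slbp) and none lower. Of all tested genes 16.6% were called higher and 15.4% lower. The median log2 ratio of the 9 was 1.34, against 0.35 over all tested genes. Maturation in aged controls called Npm1, H3f3b and Slbp higher, 3 genes against a background of 8.32%, and Hira lower against 25.9%, with a median of 0.74 against -0.29. Maturation in aged NMN oocytes called Npm1 and Slbp higher, 2 genes against a background of 3.34%, and none lower against 26.8%, with a median of 0.15 against -0.82. These 3 comparisons share no oocytes.

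The age comparisons are counted in the same way. In GV oocytes 1 gene, Hira, was called higher against a background of 19.7% and none lower against 5.68%, with a median log2 ratio of 0.10 against 0.29. In MII oocytes none was called higher against 1.76% or lower against 5.39%, with a median of -0.11 against -0.27.

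For the NMN comparisons the counts are again given beside the background. In GV oocytes NMN against aged controls called 1 gene lower (Hira, background 5.39%) and none higher (2.61%), with a median of 0.25 against 0.01. In MII oocytes it called 2 lower (H1foo and H3f3a, background 11.3%) and none higher (1.31%), with a median of 0.00 against -0.33. Against young controls, which shares the NMN oocytes with the former comparison, GV aged NMN oocytes had 1 gene called higher (H1foo, background 14.2%) and none lower (6.51%), with a median of 0.44 against 0.26. MII aged NMN oocytes had 1 called lower (H3f3a, background 14.7%) and none higher (0.888%), with a median of -0.07 against -0.68.

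**Figure D4:**
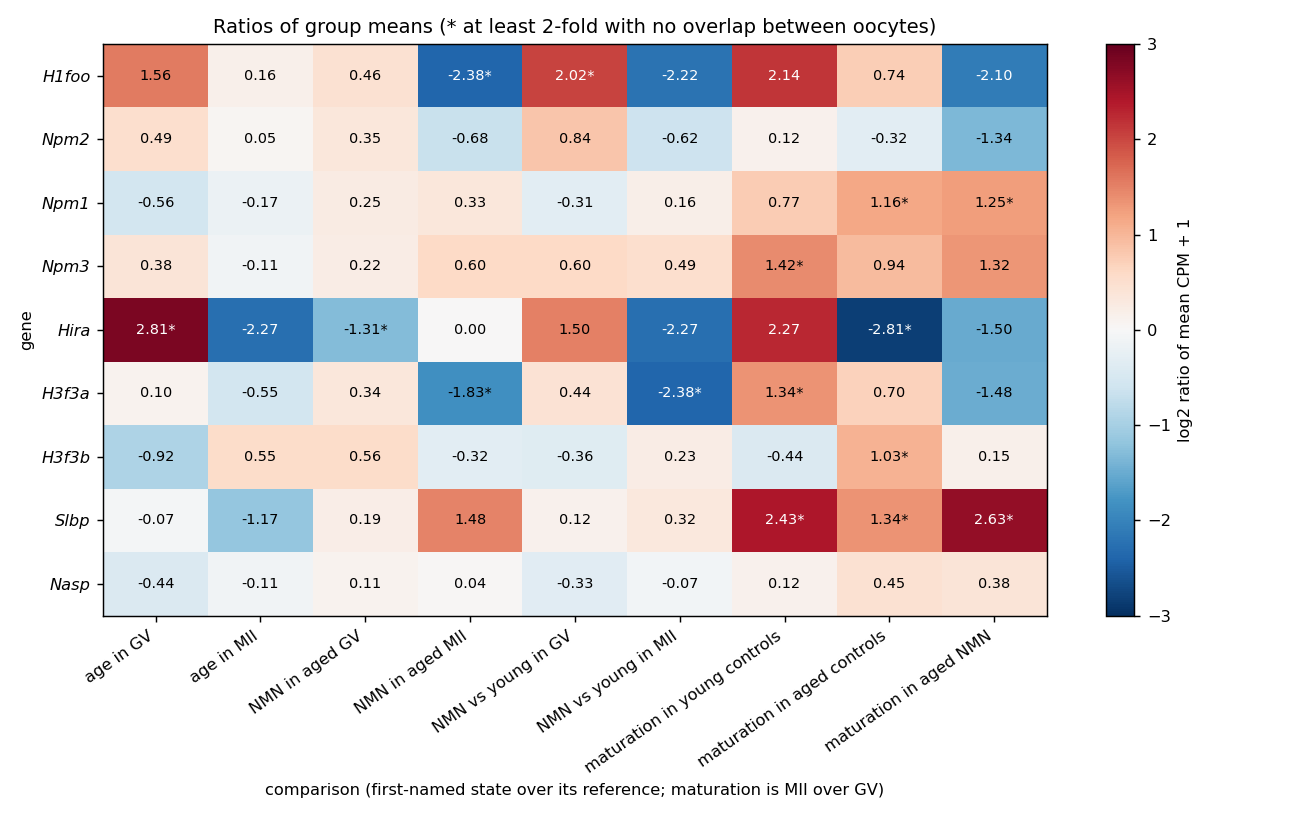
Log2 ratios of mean CPM + 1 for the 9 genes (rows) in 9 comparisons (columns), red for higher and blue for lower in the first-named state, with an asterisk for called genes. Slbp carries an asterisk in all 3 maturation columns, and H3f3a in both columns that compare MII aged NMN oocytes with controls; Hira ratios against groups without counts depend on the added 1 CPM.

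Other genes of histone handling were read from 4 lists, whose names and members were chosen with earlier results of these data known. The other histone chaperones, 28 genes that all passed the filter, had 2 called higher and 3 lower in MII than GV young controls, 6 and 5 in aged controls, and 3 and 5 with NMN. Over all tested genes 16.6% were called higher and 15.4% lower in young controls, 8.32 and 25.9% in aged controls, and 3.34 and 26.8% with NMN. The median log2 ratios of the chaperones were 0.09, 0.38 and -0.15 in that order, against 0.35, -0.29 and -0.82 over all tested genes. Asf1b, which carries H3 and H4 to the assembly factors, was higher in MII young controls at 565 ± 404 against 38.8 ± 24.2 CPM, 14.6-fold. Chaf1a, the large subunit of the replication-coupled assembly factor CAF-1, was lower in all 3 conditions. It was at 21.1 ± 18.8 against 84.0 ± 26.6 CPM in young, 9.42 ± 6.84 against 61.4 ± 55.0 in aged, and 3.58 ± 5.15 against 79.5 ± 54.1 with NMN. Chaf1b, another subunit of CAF-1, had no count in MII aged or MII aged NMN oocytes and was at 39.8 ± 22.3 and 46.3 ± 22.0 CPM in their GV counterparts, at least 165-fold and 138-fold lower.

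The list of histone mRNA processing and supply held 12 genes, all of which passed the filter. In MII young controls 4 were called higher and 1 lower, in aged controls 2 and 5, and with NMN 0 and 4, against the same background of 16.6 and 15.4%, 8.32 and 25.9%, and 3.34 and 26.8%. The medians were 1.01, -0.72 and -1.36. Lsm10, a subunit of the U7 particle that cuts histone mRNAs, was lower in every condition. It was at 54.3 ± 71.3 against 1466 ± 586 CPM in young, 46.8 ± 22.9 against 1191 ± 198 in aged, and 51.7 ± 52.3 against 1383 ± 611 with NMN, 27.0-, 25.4- and 26.7-fold. Slbp, which acts in the same step, was higher in the same 3 comparisons. Eri1, the exonuclease that trims the histone stem-loop, was higher in MII young controls at 54.3 ± 11.3 against 16 ± 16.8 CPM, and in MII oocytes it was 8.82-fold lower in aged and 9.83-fold lower in aged NMN than in young oocytes.

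Of 17 histone variants and linker histones 10 passed the filter. Of these 10, 2 were called higher and 3 lower in MII young controls, 0 and 5 in aged controls, and 0 and 3 with NMN, against a background of 16.6 and 15.4%, 8.32 and 25.9%, and 3.34 and 26.8%. The count of 3 of 10 lower with NMN was near that background. The medians were 0.06, -1.33 and -1.36. H2afj and H2afv, which encode different H2A variants, were lower in all 3 conditions. H2afj was at 16.8 ± 16.1 against 215 ± 79.3 CPM in young, 6.67 ± 5.38 against 107 ± 5.51 in aged, and 10.6 ± 7.73 against 156 ± 87.7 with NMN. H2afz, which encodes H2A.Z, was 9.90-fold higher in MII than GV young controls. In GV oocytes H2afz was 6.25-fold higher in aged and 5.54-fold higher in aged NMN than in young controls, at 75.2 ± 45.1 and 66.7 ± 43.2 against 12.0 ± 3.0 CPM.

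Of 59 replication-dependent core histone genes 19 passed the filter. Of these, 7, 7 and 9 were called lower in MII young, aged and aged NMN oocytes, against 15.4, 25.9 and 26.8% of all tested genes. None was called higher, against 16.6, 8.32 and 3.34%. The medians were -1.45, -0.82 and -1.74. Hist1h2bc was at 135 ± 97.2 against 609 ± 328 CPM in young controls, and it was 3.19-fold higher in aged than young MII oocytes. Most of these mRNAs end in a stem-loop without a poly(A) tail, and the priming of the cDNA is not given in the sources used here, so their levels may not be comparable with those of the other genes.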

How the data were processed

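Single-oocyte RNA sequencing gave 18 libraries. The deposited tables hold an expected count per gene, which the authors did not normalise, and TPM, which per the file headers is scaled by length and library. Per the submitters' processing notes, TopHat2 2.1.1, Cufflinks, FastQC 0.11.8 and Trim Galore 0.4.5 were used, with mm10 and GRCm38; the step that made the tables and the aligner settings are not given in the sources used here. GV young control 1 and 2-1 were identical and counted once, and GV aged control 2-2, with 5009 counts, was left out. MII NMN "batch 2" was read as oocyte 2 of the first title set.

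Expected counts were rounded, genes kept by filterByExpr (minimum count 10, 12161 genes) and scaled by TMM in edgeR 4.0.16 (R 4.3.3). Symbols came from GENCODE vM21 (GRCm38), for 46574 of 47069 identifiers. No test was run. Copies were found with blastn 2.17.0. Tables and figures used Python 3.11.15, pandas 2.3.3, numpy 2.4.6, scipy 1.17.1 and matplotlib 3.10.9.

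The 9 genes and the lists were chosen with earlier results of these data known. From each list and comparison, up to 4 genes without overlap, with the largest ratios and a mean of 10 CPM or more in one group, could be named; some of these are given. Intervals and floors of 3 counts cover counting error only. Alternatives were RLE factors from DESeq2 1.42.0, library totals, TPM, other pseudocounts and filters, title sets (separately and as a block), and leaving out oocytes.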

Additional observations from a re-analysis of the deposited data

Results flagged for a closer look

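The GV aged control library left out for its 5009 counts still held 53 counts of H3f3a, 1 of H3f3b, 1 of Slbp and none of the other 6 genes. In every oocyte used, H3f3b gave more counts than H3f3a. Data outside the comparisons brought this value up.

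The H3f3b share of H3f3a + H3f3b counts was -3.92 percentage points in aged against young GV oocytes and 7.06 percentage points in aged against young MII oocytes. Each aged GV oocyte lay below both young GV oocytes and each aged MII oocyte above all young MII oocytes. The difference between the stages was not tested.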

How the results depend on the processing

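Each of the 15 calls among the 9 genes was lost under at least 1 alternative, by a ratio under 2-fold or by overlap, in 42 of 240 recomputed values. None of these changed sign. Calls were lost most often for Npm1 with maturation in aged NMN oocytes (6 of 18, with a smallest log2 ratio of 0.54), H3f3b with maturation in aged controls (5 of 15, 0.72) and Hira with NMN in GV oocytes (5 of 15, -0.69). Of 1296 recomputed single-gene values 212 moved by more than the spread between oocytes. Within the second title set 53 values moved and 28 did not, and within the first 21 moved and 60 did not. With the title set as a block, on log2 values and chosen after seeing the data, all 15 called ratios stayed past 2-fold. For age in GV oocytes, comparisons within MII oocytes and maturation with NMN, both groups hold the title sets in equal proportion. There the block cannot move the difference of mean log2 values, so it cannot show whether those calls depend on the title set. The median of the 9 genes with this block was 0.11, 0.17 and 0.33 for age, NMN and NMN against young in GV oocytes and -0.081, -0.082 and -0.15 in MII oocytes. For maturation it was 1.16, 0.98 and -0.036 in young, aged and aged NMN oocytes. The titles tie oocytes to a set, not to an animal. Few counts limit Hira and, in MII aged NMN oocyte 2, H3f3a.

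The median log2 ratio of the 9 genes moved as follows. With library totals it was 0.30 for age and 0.025 for NMN in GV oocytes. With mean TPM it was 0.62 for age and 0.055 for NMN in GV oocytes, -0.81 for NMN and -1.02 for NMN against young in MII oocytes. With the library of few counts kept it was -0.17 for age and 0.77 for NMN in GV oocytes and 1.32 for maturation in aged controls. Within the second title set it was -0.21, 0.034 and 0.00 for age, NMN and NMN against young in GV oocytes, and 0.35 for maturation in young controls. Within the first it was 0.69 and -0.96 for NMN against young in GV and MII oocytes and -0.28 for maturation with NMN. Placing GV young 1 in the second set, an alternative chosen after seeing the data, gave -0.44 for age and 0.00 for NMN against young in GV oocytes and 0.42 for maturation in young controls. Placing MII NMN 2 there gave -0.67 and -0.83 in the remaining MII oocytes for NMN against aged and young controls. The cause was not tested.

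Leaving out each oocyte in turn, the median ran from -0.44 to 0.22 for age in GV, -0.46 to 0.05 for age in MII, 0.18 to 0.38 for NMN in GV and -0.56 to 0.072 for NMN in MII oocytes. It ran from 0.087 to 0.70 and from -0.67 to 0.08 for NMN against young in GV and MII oocytes. For maturation it ran from 0.79 to 1.58, 0.43 to 1.03 and -0.74 to 0.62 in young, aged and aged NMN oocytes.

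The H3f3b share by TPM, chosen after seeing the data, was 95.2, 88.6 and 86.9% in GV young, aged and aged NMN oocytes and 75.8 and 89.96% in MII young and aged oocytes. Leaving out each oocyte gave 95.6 to 96.3, 91.1 to 93.0 and 89.1 to 93.3% in GV and 84.9 to 87.6, 92.2 to 94.5 and 97.5 to 98.9% in MII oocytes, in the same order.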
